A study of Drosophila melanogaster with 40 samples.

Results

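The genes described here were low at 0.75 h and 3 h and expressed at 6 h in one series of wild-type Drosophila melanogaster embryos; other wild-type embryos of the same study held more of their RNA at 3 h. They were chosen from that stage series by their FPKM, a fragment count scaled to transcript length and library size: below 1 at 0.75 h, below 1 at 3 h and at least 10 at 6 h. Of 17535 genes in the stage tables, 69 met these thresholds. ase, wor, bap and bin were left out by name as part of the rule, and 65 genes remained. Genes whose symbols begin with Cpr or Twdl, which encode cuticle proteins, were also to be left out, and none of them met the thresholds. The question asked of these 65 genes was how far they were expressed in 3-h embryos that lacked maternal Jumu or maternal DMAD.

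The jumu M-,Z- group at 3 h lacked both maternal and zygotic jumu, and the jumu M-,Z+ groups at 3 h and 0.75 h lacked maternal jumu but received a functional paternal copy. The DMAD M- group at 3 h lacked maternal DMAD, and jumu mutant ovaries were also profiled. DMAD knockdown embryos at 6 h, from w1118 embryos injected with dsRNA against DMAD, enter only through their 6mA peaks. Each mutant group had a wild type (WT, w1118) of the same age or tissue, and the jumu M-,Z- and M-,Z+ groups at 3 h shared theirs. The 2 jumu alleles were made by CRISPR/Cas9 and the DMAD embryos carried null alleles; jumu encodes a forkhead protein that binds DNA marked with N6-methyladenine (6mA), and DMAD (listed as Tet) encodes an enzyme that removes the mark. The WT stage series had 0.75-h, 3-h and 6-h embryos, where 3 h means 2.5 to 3 h and 6 h means 5.5 to 6 h after laying. Each RNA group had 2 libraries but a single deposited FPKM per gene, so no spread between replicates could be computed and no p-value is given. A gene is called lower or higher when log2(FPKM + 1) differs by 1 or more. This scale understates the change of low genes, and sequencing depth is unknown.

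In the early fly embryo, RNA loaded by the mother directs the nuclear cycles, and the embryo's own genome becomes broadly active around cellularization. Patterning genes come first. Genes for particular organs and cell types, such as neural precursors, tracheal cells and myoblasts, follow during gastrulation and germ band extension. A gene in this later wave is therefore commonly read as a mark of how far development has gone.

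By role, 22 of the 65 genes encode transcription regulators, 8 encode extracellular, adhesion or polarity proteins, 7 act in metabolism or transport, 3 are myoblast or mesoderm genes, 2 encode immune peptides and 2 RNA-binding or ribosomal proteins. A further 6 are non-coding RNAs, and 15 were assigned no role. Of the 64 genes that could be placed on dm6 with the Ensembl annotation, 58 were protein coding (90.6%, against 78.8% of 17296 placed genes). Their median length was 3449.5 bp, against 1693.5 bp over all placed genes, and the longest was dpy at 136839 bp. Only 9 had a single exon (14.1%, against 25.1%). Only 3 pairs lay within 50 kb of each other, and the closest were BomS6 and BomS5, 111 bp apart. An exon of 14 genes overlapped an exon of another gene, among them cn, svp, otp, sing, trh, Cad99C, CG6356 and CG31121, and the sources used here do not state that counting used strand, so reads of these genes may come in part from the neighbour.

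The starts of 7 genes are printed here, the 4 whose levels are plotted by group and 3 developmental regulators with GAGAGAG runs. Each window runs from 250 bp upstream to 20 bp downstream of the annotated gene start, 5′ to 3′ on the strand of the gene, from the RefSeq dm6 assembly. Capitals mark TATAAA (the TATA box), CAGGTAG (a sequence bound by Zelda), GAGAGAG (bound by the GAGA factor), CAGCTG (an E-box) and TCAGTT (an initiator form), searched on both strands with overlapping matches joined; GTAAACA, a forkhead site, was searched as well.
Him (chrX:18209177-18209446, plus strand): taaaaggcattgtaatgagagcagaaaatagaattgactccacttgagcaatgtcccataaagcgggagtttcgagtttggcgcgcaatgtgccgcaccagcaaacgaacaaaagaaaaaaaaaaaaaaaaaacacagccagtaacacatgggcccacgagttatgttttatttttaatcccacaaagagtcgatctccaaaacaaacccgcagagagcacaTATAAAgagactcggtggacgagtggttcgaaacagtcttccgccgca
ato (chr3R:8277802-8278071, plus strand): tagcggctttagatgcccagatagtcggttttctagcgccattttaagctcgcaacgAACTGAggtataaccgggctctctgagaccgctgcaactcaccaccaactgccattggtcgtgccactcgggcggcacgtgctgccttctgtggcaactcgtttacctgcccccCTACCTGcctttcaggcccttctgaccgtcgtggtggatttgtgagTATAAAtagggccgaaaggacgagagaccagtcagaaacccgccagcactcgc
CG45116 (chr3L:22699183-22699452, plus strand): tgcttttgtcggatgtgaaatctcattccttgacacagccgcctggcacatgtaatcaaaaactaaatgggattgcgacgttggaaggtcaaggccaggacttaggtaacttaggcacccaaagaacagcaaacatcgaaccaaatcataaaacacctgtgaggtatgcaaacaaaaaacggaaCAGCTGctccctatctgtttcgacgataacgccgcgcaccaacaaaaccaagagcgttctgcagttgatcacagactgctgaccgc
RpS10a (chr3R:27652510-27652779, plus strand): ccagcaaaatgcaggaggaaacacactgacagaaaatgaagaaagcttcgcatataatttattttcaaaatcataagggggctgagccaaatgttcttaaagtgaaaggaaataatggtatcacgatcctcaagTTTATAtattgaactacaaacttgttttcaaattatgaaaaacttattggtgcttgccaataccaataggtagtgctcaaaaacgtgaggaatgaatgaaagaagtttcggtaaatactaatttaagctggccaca
Scr (chr3R:6849962-6850231, minus strand): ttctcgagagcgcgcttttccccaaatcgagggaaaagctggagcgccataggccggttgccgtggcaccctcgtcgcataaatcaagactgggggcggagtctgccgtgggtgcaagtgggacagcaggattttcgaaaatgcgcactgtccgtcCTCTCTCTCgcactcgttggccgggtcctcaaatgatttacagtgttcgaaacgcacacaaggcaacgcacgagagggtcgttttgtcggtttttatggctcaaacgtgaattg
ct (chrX:7608178-7608447, plus strand): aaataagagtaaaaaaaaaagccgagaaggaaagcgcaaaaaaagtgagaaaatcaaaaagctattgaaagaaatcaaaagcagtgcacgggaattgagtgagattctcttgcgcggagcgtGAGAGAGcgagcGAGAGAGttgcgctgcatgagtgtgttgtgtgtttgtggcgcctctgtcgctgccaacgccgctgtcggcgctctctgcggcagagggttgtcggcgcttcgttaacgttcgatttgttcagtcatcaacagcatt
caup (chr3L:12609381-12609650, plus strand): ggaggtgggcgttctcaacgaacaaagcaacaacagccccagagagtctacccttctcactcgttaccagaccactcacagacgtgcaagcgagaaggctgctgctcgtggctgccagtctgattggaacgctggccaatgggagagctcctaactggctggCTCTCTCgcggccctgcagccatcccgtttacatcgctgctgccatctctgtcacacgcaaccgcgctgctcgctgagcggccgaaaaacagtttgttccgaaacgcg
TATAAA was found in 22 of 64 windows (34.4%, against 42.6% of 17183 gene starts). GAGAGAG was found in 9 (14.1%, against 5.18%), in Scr, ct, caup, jeb, dve, meru, HGTX, CG31121 and asRNA:CR45143. CAGGTAG was found in 1, that of ato (1.56%, against 1.53%), CAGCTG in 5 (7.81%, against 14.4%), GTAAACA in 6 (9.38%, against 7.33%) and TCAGTT in 21 (32.8%, against 24.0%). These are descriptions of letters in a window, not of occupied sites.

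In the stage series, which chose the genes, the median was 0.185 FPKM at 0.75 h, 0.605 FPKM at 3 h and 15.6 FPKM at 6 h, with 11 genes listed at 0 at 0.75 h and 7 at 3 h. These values describe the choice and are not a finding. The genes just inside the 6-h threshold were CG42834, CG31121 and CG6356 at 10.1, 10.5 and 10.5 FPKM, and those just outside were Ret, Poxm and Kah at 9.96, 9.72 and 9.66 FPKM. At 3 h, Cad99C, Orct2 and CG18265 lay just inside at 0.991, 0.989 and 0.956 FPKM, and axed, Oli and CG30460 just outside at 1.03, 1.03 and 1.04 FPKM. At 0.75 h, Reck, lncRNA:CR30009 and Smvt lay just inside at 0.764, 0.643 and 0.518 FPKM, and CG42518, Dad and Cph outside at 1.45, 1.95 and 4.10 FPKM.

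The 12 highest genes at 6 h included regulators known from several tissues, although RNA of whole embryos does not show the tissue of origin. Him, which holds back muscle differentiation in progenitors, was listed at 80.1 FPKM, and lmd, a Gli-family factor of fusion-competent myoblasts, at 45.6 FPKM. The proneural factor ato was at 53.6 FPKM and sens, a zinc finger protein of sensory organ precursors, at 33.7 FPKM. trh, the bHLH-PAS regulator of tracheal fate, was at 34.9 FPKM. The kynurenine 3-monooxygenase gene cn, whose loss gives cinnabar eyes, was at 49.5 FPKM, and the transporter genes Smvt and Orct2 were at 67.2 and 36.8 FPKM. BomS6 and BomS5, near-identical short genes for Toll-induced peptides, were at 110.9 and 64.8 FPKM, and their split is uncertain. The highest value, 2033.85 FPKM, belonged to snoRNA:Psi28S-2179, which is 145 bp long and was listed in no mutant table, and lncRNA:CR43995 was at 69.8 FPKM. The libraries were made from purified mRNA, so the level of this snoRNA is uncertain.

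**Figure D1:**
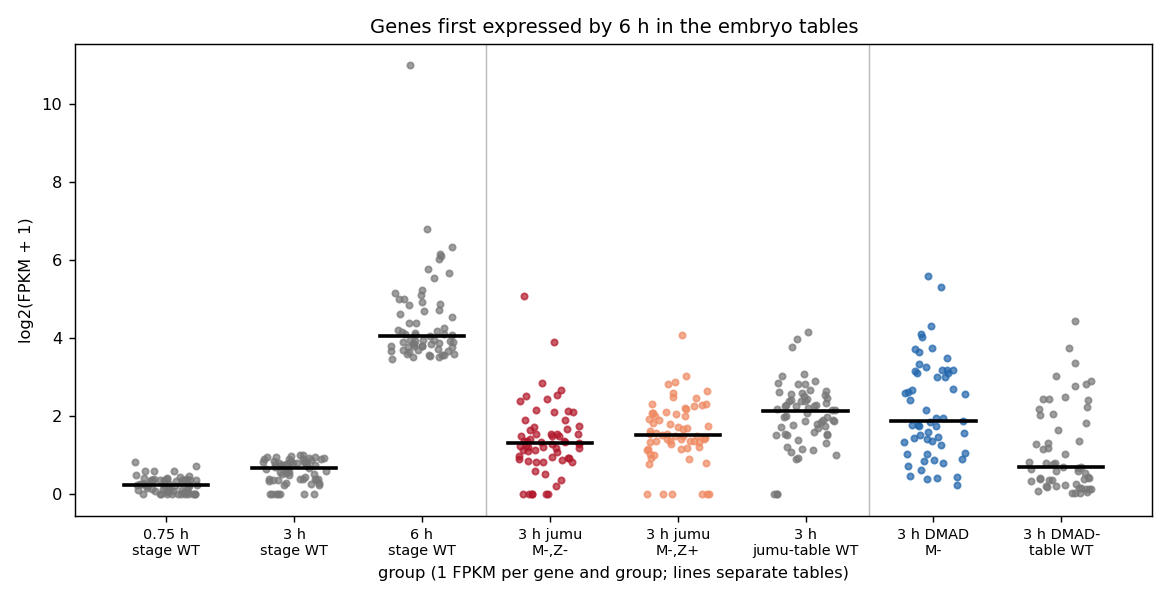
Level of each gene as log2(FPKM + 1) in the 8 embryo groups of the stage, 3-h jumu and DMAD tables; each point is 1 gene, the black bar is the median, and vertical lines separate tables that may be scaled differently. The medians were 1.47 FPKM in jumu M-,Z-, 1.88 in jumu M-,Z+ and 3.38 in their WT, and 2.68 in DMAD M- against 0.611 in its WT.

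The same age label did not give the same level in the 3 wild types. At 3 h the median was 3.38 FPKM in the WT of the jumu table, 0.611 FPKM in the WT of the DMAD table and 0.605 FPKM in the stage series, although the rule holds the last of these below 1 and the tables may be scaled separately. Among the 57 genes listed in all 3 tables, the jumu-table WT was highest for 50 and the DMAD-table WT for 7. Him, for example, was at 14.9 FPKM in the jumu-table WT, 20.6 FPKM in the DMAD-table WT and 0.879 FPKM in the stage series. lmd was at 4.93, 0.304 and 0.865 FPKM in the same order. The wild types also differed in genes of later stages: 9 matched genes of differentiated muscle summed to 1071 FPKM in the jumu-table WT, 28.4 FPKM in the DMAD-table WT and 833 FPKM in the stage series, and were already at 293 FPKM in the 0.75-h stage library, before zygotic muscle exists. The paper states that the stage series was sequenced on a HiSeq platform and the 3-h jumu series on NovaSeq with longer reads. Neither the part of this difference nor that of RNA of later animals in the collections was tested. The 13 eggshell genes, a mark of ovary tissue, summed to at most 41.8 FPKM in any embryo group.

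In jumu M-,Z- embryos at 3 h, the late-wave genes were mostly below WT. Of the 64 listed, 58 were below WT and 3 above (90.6% and 4.69%). Over all 16668 genes, 1830 of them at 0 in WT, these shares were 56.6% and 34.2%. The median change was -0.61, against -0.12 over all genes. The change reached the threshold for 14 lower genes (21.9%, with 12.2% of all genes lower) and 1 higher gene (1.56%, with 11% of all genes higher). Genes below 1 FPKM in every group cannot reach this threshold. Among genes with at least 1 FPKM in some group, 20.7% were lower and 18.6% higher, against 14 and 1 of 58 late-wave genes, so the count of lower genes was close to the background and the count of higher genes below it. In bulk embryos, fewer cells of a type and less RNA per cell cannot be told apart. In jumu M-,Z+ embryos, 49 were below WT and 12 above (76.6% and 18.75%, with 53.1% and 37.4% of all genes). The median was -0.42 (all genes, -0.05). By at least 1, 9 were lower and 2 higher (14.1% and 3.12%). Of all genes, 6.92% were lower and 6.94% higher. Among genes with at least 1 FPKM, of which 59 were late-wave genes, it was 11.5% each way. The low end of the distribution differed between the groups of this table: when its columns were given a common distribution by quantile normalization, the median became 0.03 in M-,Z-, where 3 of the 14 lower genes kept a change of 1 (Him, Spn28Da and lncRNA:CR45387), and -0.20 in M-,Z+, where 6 of the 9 did (C15, ato, Him, Spn28Da, CG34025 and CG45116). The direction over the whole set in M-,Z- therefore holds for the FPKM as deposited and not under that scaling, and each gene called lower kept its sign, while 30 of the 64 changed sign in M-,Z- and 6 in M-,Z+.

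The comparisons share one WT, so their values stand side by side. At least 1 lower in both mutants were 6 of 64 genes (9.38%, with 5.3% of all genes): Spn28Da, CG45116, C15, Him, Awh and lncRNA:CR45666. A gene below 1 FPKM in WT cannot be lower by 1. In that WT 58 of the 64 genes (90.6%) had at least 1 FPKM, against 57.8% of all genes. The 2 shares are therefore not on a like basis, and the higher one is not read as a difference. Below WT by any amount in both were 49 genes (76.6%, against 46.0% of all genes), and 3 were above in both. A gene at 0 in WT cannot be below it, and 3 of the 64 and 1830 of all 16668 genes were at 0. These shares are not on a like basis either, and both rest on 1 shared WT. RpS10a was the 1 gene higher by at least 1 in both (4.89% of all genes).

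Spn28Da, a serpin-family gene, had 0.160 FPKM in jumu M-,Z-, 1.01 FPKM in jumu M-,Z+ and 12.7 FPKM in WT, with changes of -3.57 and -2.77. Him had 6.23 FPKM in M-,Z-, 6.35 FPKM in M-,Z+ and 14.9 FPKM in WT, so both mutants were lower by 1.13 and 1.11 on the log2 scale and hardly differed from each other. C15, a homeobox gene of the distal leg, had 1.57 FPKM in M-,Z-, 2.38 FPKM in M-,Z+ and 6.05 FPKM in WT. Awh, a LIM-homeobox gene of imaginal cells, had 1.33, 1.53 and 4.09 FPKM in the same order. ato had 3.30 FPKM in M-,Z-, 1.31 FPKM in M-,Z+ and 6.26 FPKM in WT. Its lowest level was thus in the embryos with a paternal jumu copy, and the change passed 1 in M-,Z+ (-1.65) and not in M-,Z- (-0.76).

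The 22 transcription regulators were all below WT in M-,Z- (56.6% of all genes), with a median of -0.73 and 4 lower by at least 1. The background was 12.2% of all genes and 20.7% of those with at least 1 FPKM. In M-,Z+ 20 of 22 were below WT (53.1% of all genes), with a median of -0.68 and 5 lower by at least 1. There the background was 6.92% of all genes and 11.5% of those with at least 1 FPKM. After quantile normalization 10 of 22 were below WT in M-,Z-, with a median of 0.03, and 19 in M-,Z+, with a median of -0.44. lmd had 3.35 FPKM in M-,Z-, 3.23 FPKM in M-,Z+ and 4.93 FPKM in WT. sens had 2.73, 1.91 and 4.31 FPKM, and trh had 3.33, 3.83 and 4.86 FPKM, in the same order. All 3 stood below WT in both mutants without reaching a change of 1. The Hox gene Scr had 2.17 FPKM in M-,Z-, 3.52 FPKM in M-,Z+ and 3.77 FPKM in WT. Above WT in M-,Z+ were ct, a homeobox gene of external sense organs, and HGTX, an Nkx6-family gene: ct had 1.37 FPKM in M-,Z-, 3.97 FPKM in M-,Z+ and 2.94 FPKM in WT, and HGTX had 4.44, 6.07 and 4.53 FPKM.

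Among the other roles, cn had 1.29 FPKM in M-,Z-, 2.07 FPKM in M-,Z+ and 5.14 FPKM in WT, and Orct2 was nearly level at 4.83, 5.23 and 5.39 FPKM. The 8 extracellular and polarity genes were all below WT in M-,Z- (56.6% of all genes) and 4 of 8 in M-,Z+ (53.1% of all genes). sing, sns and jeb, for myoblast fusion and a visceral mesoderm ligand, were below WT in M-,Z- by 0.35, 0.20 and 0.42. In M-,Z+ the changes were -0.50 for sing, 0.57 for sns and -0.81 for jeb. BomS5, BomS6 and lncRNA:CR43995 were listed at 0 in all 3 groups.

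**Figure D2:**
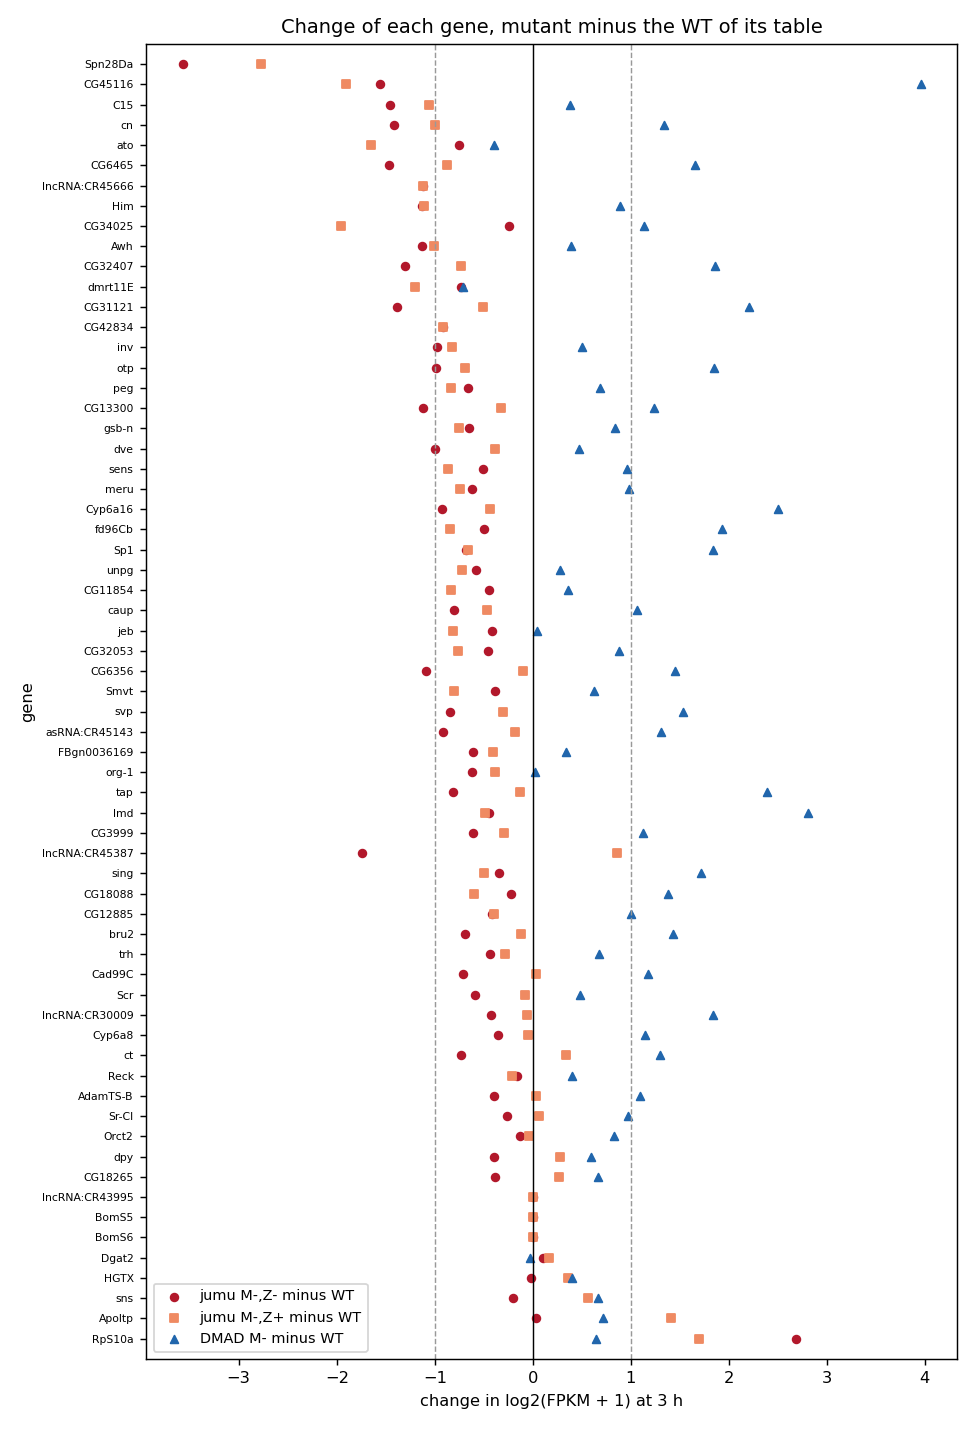
Change in log2(FPKM + 1) at 3 h for each of the 64 genes, mutant minus the WT of its table; red circles are jumu M-,Z-, orange squares jumu M-,Z+ and blue triangles DMAD M-, and dashed lines mark a change of 1 in size. Most red and orange points lie left of 0 and 54 of 57 blue points lie right of 0, with RpS10a (bottom row) right of 0 in all 3.

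RpS10a (FBgn0027494, chr3R:27652760-27653363) went the other way. It encodes a paralog of the ribosomal protein gene RpS10b, and reads may be shared between them. It had 32.6 FPKM in M-,Z-, 15.8 FPKM in M-,Z+ and 4.21 FPKM in WT at 3 h, changes of 2.69 and 1.69. At 0.75 h it had 18.8 FPKM in M-,Z+ and 2.09 FPKM in WT (2.67), and in ovaries 38.9 FPKM in jumu mutants and 5.13 FPKM in WT (2.70). In the DMAD table it had 5.54 FPKM in DMAD M- and 3.17 FPKM in WT, which is under the threshold. Its level in the 3 jumu mutant embryo groups, 15.8 to 32.6 FPKM, was above the 11.7 FPKM of the 6-h WT, a table that may be scaled differently. The high level was thus present in mutant ovaries and in 0.75-h mutant embryos, before the late wave. Apoltp, a lipid transfer particle gene chosen after its values were seen, was the other higher gene, with 1.15 FPKM in M-,Z-, 4.56 FPKM in M-,Z+ and 1.10 FPKM in WT.

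Set directly against M-,Z+ embryos, M-,Z- embryos had a median change of -0.18 over the 64 genes (all genes, 0), with 40 below and 19 above (62.5% and 29.7%, with 42.1% and 44.0% of all genes). This direction turned after quantile normalization, to a median of 0.26 with 22 below and 42 above. At least 1 lower were 3 genes, ct, Apoltp and lncRNA:CR45387 (7.16% of all genes, 13.2% of those with at least 1 FPKM), and CG34025 was higher (2.79% of all genes, 5.12% of those with at least 1 FPKM). CG34025 had 14.0 FPKM in M-,Z-, 3.60 FPKM in M-,Z+ and 16.8 FPKM in WT, so the M-,Z+ group alone stood apart. lncRNA:CR45387, also picked after its values were seen, had 0 FPKM in M-,Z-, 5.05 FPKM in M-,Z+ and 2.35 FPKM in WT.

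In DMAD M- embryos at 3 h, the late-wave genes were mostly above WT. Of the 57 listed, 54 were above WT and 3 below (94.7% and 5.26%, with 54.4% and 45.6% of all genes). The median change was 0.98 (all 11179 genes, 0.07). By at least 1, 26 were higher (45.6%, with 18.5% of all genes higher) and none lower (4.06% of all genes lower). Among genes with at least 1 FPKM, 23% were higher and 5.07% lower, against 26 and 0 of 46 late-wave genes. The other 8 genes were not in this table, among them BomS5, BomS6, Spn28Da and CG42834, and not listed is not the same as 0. After quantile normalization, which moved the median of all genes to -0.21, the median over the set was 0.21 and 8 of the 26 kept a change of 1: CG45116, lmd, Cyp6a16, tap, CG31121, fd96Cb, CG32407 and CG6356. All 26 kept their sign.

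CG45116 (FBgn0266591, chr3L:22699433-22699870), a short single-exon gene with no role assigned, had the largest change: 47.4 FPKM in DMAD M- and 2.12 FPKM in WT (3.96). In the jumu table it had 0.280 FPKM in M-,Z-, 0 FPKM in M-,Z+ and 2.76 FPKM in WT, and it reached 13.4 FPKM in the 6-h WT. lmd had 8.13 FPKM in DMAD M- and 0.304 FPKM in WT (2.81). Cyp6a16, a cytochrome P450 gene, had 8.04 FPKM in DMAD M- and 0.602 FPKM in WT, and tap, a bHLH gene of neural precursors, had 8.08 FPKM in DMAD M- and 0.731 FPKM in WT. CG31121 had 4.31 FPKM in DMAD M- and 0.148 FPKM in WT. In each of these 5 genes the WT level was near or below 2 FPKM.

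Of the 22 transcription regulators, 20 were above WT (13 after quantile normalization) and 8 higher by at least 1: lmd, tap, fd96Cb, otp, Sp1, svp, ct and caup. Above WT by any amount were 54.4% of all genes. The background for a change of 1 was 18.5% of all genes higher and 23% of those with at least 1 FPKM. fd96Cb, a forkhead gene, had 16.1 FPKM in DMAD M- and 3.50 FPKM in WT, and svp, a nuclear receptor gene, had 2.86 and 0.331 FPKM. The exceptions were ato, with 5.16 FPKM in DMAD M- and 7.12 FPKM in WT, and dmrt11E, with 5.31 FPKM in DMAD M- and 9.34 FPKM in WT. Dgat2, a lipid synthesis gene, was the third gene below WT, at 12.3 FPKM in DMAD M- and 12.5 FPKM in WT, and jeb and org-1 were almost level (0.04 and 0.02). Him had 38.8 FPKM in DMAD M- and 20.6 FPKM in WT, a change of 0.89. sing, which acts in myoblast fusion, had 6.99 FPKM in DMAD M- and 1.44 FPKM in WT.

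**Figure D3:**
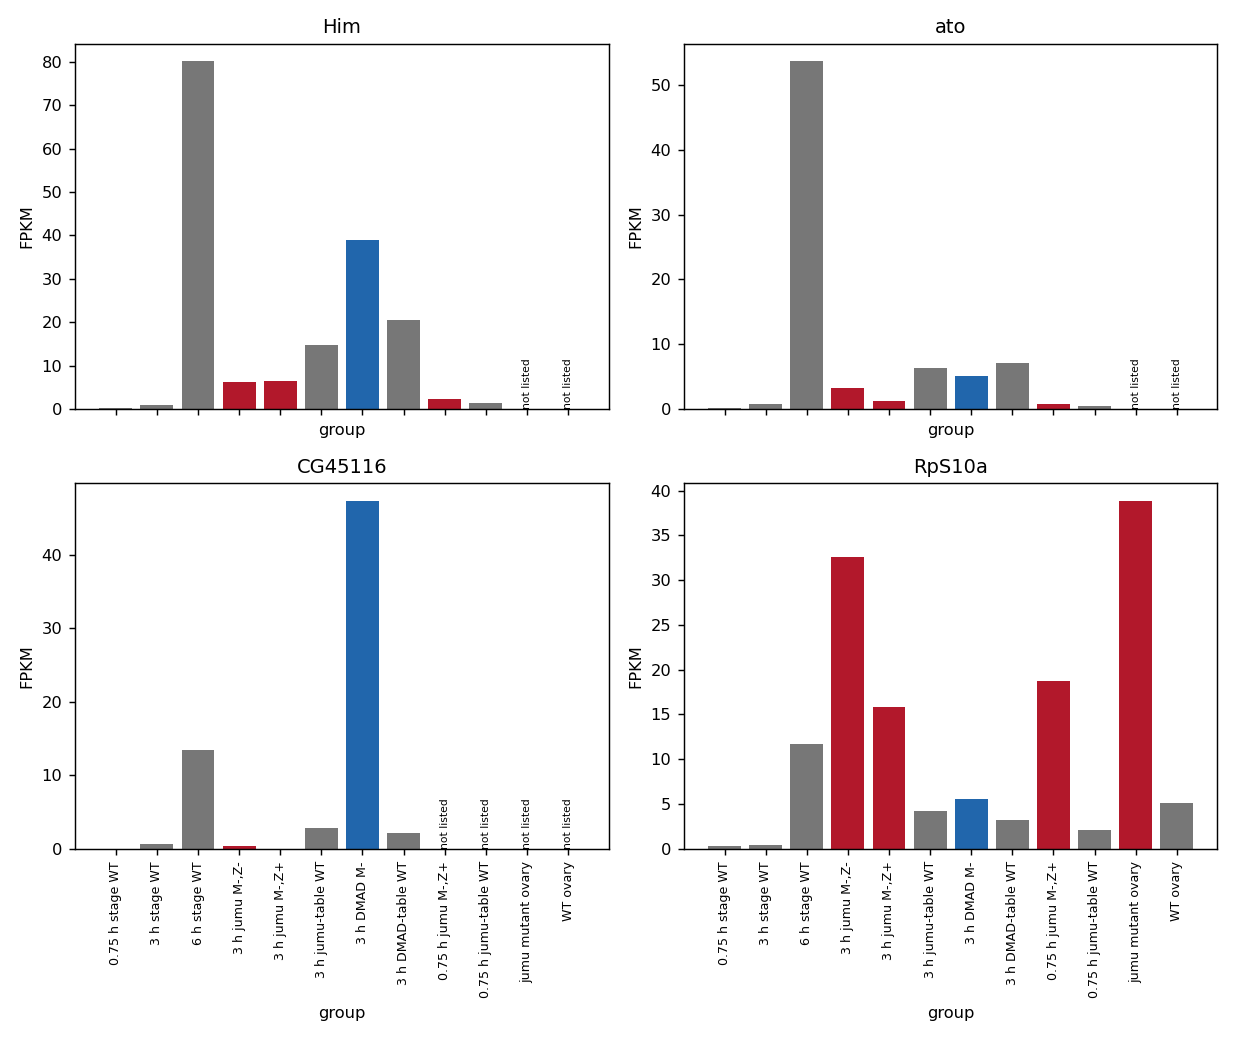
FPKM of Him, ato, CG45116 and RpS10a in 12 groups; bars are red for jumu mutants, blue for DMAD M- and grey for WT, and "not listed" marks a gene outside a table. RpS10a was 15.8 to 38.9 FPKM in the 4 jumu mutant groups and 2.09 to 5.13 FPKM in their WT.

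Other genes moved beside these. The 9 muscle genes summed to 15.6 FPKM in jumu M-,Z-, 524 FPKM in jumu M-,Z+ and 1071 FPKM in their WT, and to 4065 FPKM in DMAD M- against 28.4 FPKM in its WT, with all 9 higher in DMAD M- and all 9 lower in M-,Z-. The 96 cuticle genes (Cpr followed by a number, or Twdl) had a median change of -1.19 in M-,Z-, -0.80 in M-,Z+ and 3.62 in DMAD M-, where 53 of them were listed and 41 were higher. In the other direction, 10 maternally loaded RNAs summed to 1283 FPKM in M-,Z-, 512 FPKM in M-,Z+ and 175 FPKM in WT. The same RNAs summed to 947 FPKM in DMAD M- and 1538 FPKM in the DMAD-table WT, with 1 higher and 1 lower. In DMAD M- the 10 cellular blastoderm genes summed to 445 FPKM, against 11254 FPKM in WT, and were all lower. In the jumu table the same genes summed to 4438 FPKM in M-,Z-, 6279 FPKM in M-,Z+ and 7518 FPKM in WT. The muscle and cuticle genes already differed at 0.75 h. The 9 muscle genes then summed to 41.7 FPKM in M-,Z+ and 369 FPKM in WT. The 27 cuticle genes listed at 0.75 h summed to 4.19 and 120 FPKM, with 14 lower and 0 higher. The part of embryo age and of RNA from later stages in the changes of the late-wave genes was not tested.

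Of the 19 lists of tissue and stage genes, the 7 that hold late-wave genes, beside many genes of other timing, were counted too. Over all genes the shares called were 12.2% lower and 11% higher in jumu M-,Z-, 6.92% and 6.94% with a paternal copy (M-,Z+), and 4.06% and 18.5% in DMAD M-. Among genes with at least 1 FPKM they were 20.7% and 18.6%, 11.5% each way, and 5.07% and 23%, in the same order. Of 15 sensory organ genes, sens, ato and ct among them, 3 were lower in M-,Z- and none higher, 3 were lower and 1 higher in M-,Z+, and 3 were lower and 2 higher in DMAD M-. Of 20 myoblast genes, with lmd, sns and sing, 2 were lower in each jumu mutant and none higher, near the shares of all genes, and in DMAD M- 8 of 18 listed were higher and none lower. Of 20 tracheal genes, trh among them, 13 were lower in M-,Z- and none higher, 3 were lower and 1 higher in M-,Z+, and 1 of 17 listed was lower and 11 higher in DMAD M-. trh itself reached the threshold in none of the 3. At 0.75 h the 19 listed tracheal genes already summed to 44.3 FPKM in M-,Z+ and 226 FPKM in WT. Of 13 heart and visceral mesoderm genes, with svp, jeb and org-1, 8 were lower in M-,Z-, 3 were lower in M-,Z+ and 3 were higher in DMAD M-, with none called the other way.

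The neuron and axon list went otherwise in M-,Z+. Of its 30 genes, unpg among them, 7 were lower and 1 higher in M-,Z-, none was lower and 8 were higher in M-,Z+ (median 0.29), and 3 were lower and 7 higher in DMAD M-. Of 13 gut genes, with otp, 2 were lower and 1 higher in M-,Z-, none was lower and 1 higher in M-,Z+, and 2 were lower and 4 higher in DMAD M-. Of 8 salivary gland genes, with Scr, 3 were lower in M-,Z- and 1 in M-,Z+ with none higher, and 5 of 7 listed were higher in DMAD M- with none lower.

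Set beside genes that switch on earlier, the late wave went the other way in DMAD M- and the same way in M-,Z-. The 113 genes that were below 1 FPKM at 0.75 h and at least 10 FPKM at both later stages had a median change of -0.76 in M-,Z-, 0.14 in M-,Z+ and -0.61 in DMAD M-. In M-,Z- 91.1% of the 112 listed were below WT and 32.1% lower by at least 1. The late wave had 90.6% and 21.9%, so its lower level in M-,Z- was not particular to it. The 26 genes that were at least 10 FPKM at 3 h only had -0.34 in M-,Z-, 0.00 in M-,Z+ and -4.30 in DMAD M-, where 21 of 21 listed were lower. Of these 4 sets, the late wave and the cuticle genes had a median above 0 in DMAD M- and below 0 in both jumu mutants, and so had all genes together, at 0.07, -0.12 in M-,Z- and -0.05 in M-,Z+.

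**Figure D4:**
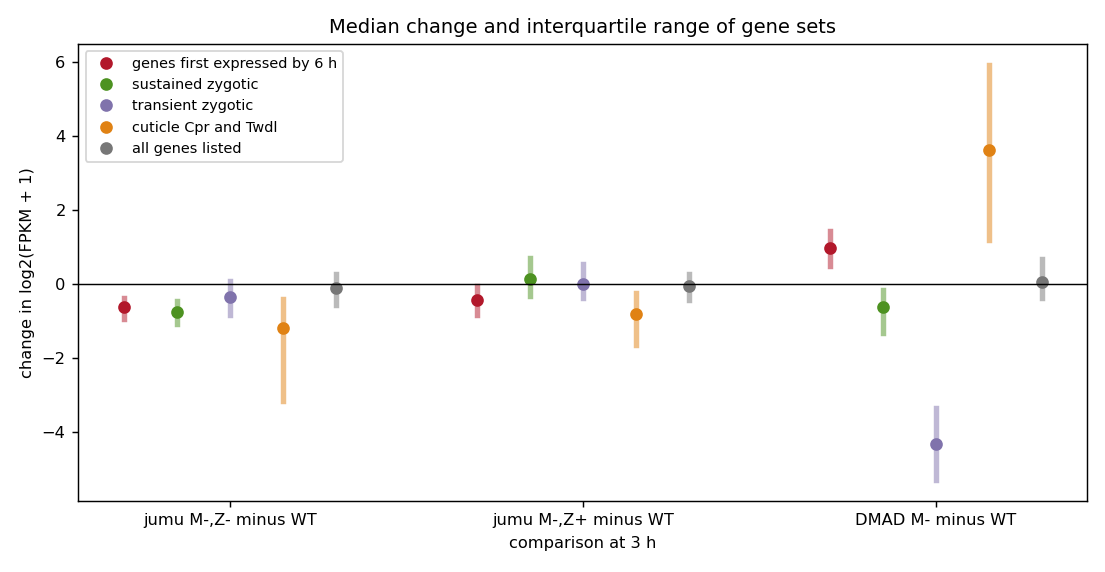
Median change in log2(FPKM + 1) (points) and interquartile range over genes (bars) for the genes first expressed by 6 h, 113 sustained and 26 transient zygotic genes, 96 cuticle genes and all genes listed, in the 3 mutants against their WT at 3 h. In DMAD M- the medians were 0.98, -0.61, -4.30, 3.62 and 0.07 in that order.

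The place of each gene between its 3-h level (0%) and its 6-h level (100%) in the stage series, on the log2 scale, gave a second description, on a scale whose ends are the values that chose the genes. The median was 19.9% in jumu M-,Z-, 26.5% in jumu M-,Z+ and 39.5% in their WT, and 33.3% in DMAD M- against 0.436% in its WT. The interquartile range in DMAD M- was 13.7% to 69.1%, wider than the 8.17% to 26.6% of M-,Z-, and 22 of 57 genes passed the midpoint in DMAD M- against 9 in its WT. The order was M-,Z-, M-,Z+ and DMAD M- below the jumu-table WT, so a mutant above its own WT was still below another wild type of the same nominal age. With the 3-h WT of the DMAD table as the control, the medians were 0.71 in M-,Z- and 0.83 in M-,Z+, and with the jumu-table WT as the control the median in DMAD M- was -0.12.

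At 0.75 h most of the genes were low in both groups. Their median was 0.911 FPKM in jumu M-,Z+ and 0.569 FPKM in WT over 56 listed genes. Above WT were 45 (80.4%, with 47.7% of all genes), and the median change was 0.24 (all genes, -0.02). At least 1 FPKM was reached by 23 genes in M-,Z+ and 12 in WT, and sing stood at 7.27 and 5.98 FPKM. RpS10a and Cyp6a8 were higher by at least 1 (3.57%, with 1.05% of all genes higher) and none was lower (2.89% of all genes lower); among genes with at least 1 FPKM, 1.36% were higher and 3.75% lower. In ovaries 37 were listed, with a median of 0.0953 FPKM in jumu mutants and 0.313 FPKM in WT. RpS10a was higher (1.08% of all genes, 1.57% of those with at least 1 FPKM), and 4 were lower (10.8%, with 3.5% of all genes and 5.08% of those with at least 1 FPKM): Smvt, lncRNA:CR43995, asRNA:CR45143 and Cad99C. Smvt had 0.0489 FPKM in jumu mutant ovaries and 8.69 FPKM in WT ovaries, and Cad99C, a cadherin of follicle cell microvilli, had 3.82 and 9.97 FPKM. The paper reports that loss of jumu affected germline development. The 13 eggshell genes summed to 36270 FPKM in jumu mutant ovaries and 74634 FPKM in WT ovaries. The part of ovary make-up in these changes was not tested. Genes at or below 1 FPKM at 0.75 h were thus not all silent in the ovary.

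RNA of the targeted genes did not mark the mutants. jumu was at 55.5 FPKM in M-,Z-, 103 FPKM in M-,Z+ and 71.8 FPKM in WT at 3 h, and Tet at 3.41 FPKM in DMAD M- and 1.49 FPKM in WT. Tet itself was at 120 FPKM in the 6-h WT stage table.

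The last question was whether these genes carried 6mA or Jumu peaks, counted where a peak centre lay in the gene or within 1 kb. For the Jumu peaks, the authors incubated Flag-tagged Jumu from cultured cells with purified, fragmented embryo DNA. These peaks therefore describe binding to isolated DNA and not occupancy in the embryo. There was 1 library per condition, so intervals are exact 95% binomial and cover counting error only. At 0.75 h, 25 of 64 genes had a 6mA peak (39.1%, interval 27.1 to 52.1%, against 22.0% of all genes), at 3 h 14 (21.9%, 12.5 to 34.0%, against 6.99%) and at 6 h 9 (14.1%, 6.64 to 25.02%, against 4.46%). In DMAD knockdown embryos at 6 h, for which no IgG library of their own is listed, 25 had one (39.1%, against 14.1%), against the 9 in 6-h WT. Jumu peaks lay at 9 genes at 0.75 h (14.1%, against 4.36%) and at 4 at 6 h (6.25%, 1.73 to 15.2%, against 1.76%).

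The set was spread over the chromosome arms, with 7 genes on 2L, 14 on 2R, 16 on 3L, 18 on 3R and 9 on X. Length went with the peak shares. Of the 25 genes of at least 10 kb, 68% had a 6mA peak at 0.75 h, against 77.0% of all genes that long. Of the 19 genes of 2 to 10 kb it was 31.6%, against 18.5%, and of the 20 shorter genes 10%, against 13.03%. In the 2 to 10 kb class the shares were also above those of all genes for 6mA at 3 h (3 of 19, 15.8%, against 3.63%) and at 6 h (4 of 19, 21.1%, against 2.82%), for DMAD knockdown (4 of 19, 21.1%, against 11.9%) and for Jumu at 0.75 h (3 of 19, 15.8%, against 2.63%). Under 2 kb, DMAD knockdown peaks lay at 4 of 20 (20%, against 5.33%) and Jumu peaks at 0.75 h at none (1.83%). At 10 kb and over the shares were 40% against 35.9% for 6mA at 3 h, 20% against 25.1% at 6 h, 68% against 63.6% for DMAD knockdown and 24% against 21.9% for Jumu at 0.75 h. The 110 peaks at 0.75 h were gathered in a few long genes, with 19 in dpy, which encodes a giant apical matrix protein, 17 in ct and 14 in jeb, and 79 were centred in introns, 27 in exons and 4 outside the gene. The 15 Jumu peaks at 0.75 h lay at dpy (6), jeb (2), and ct, inv, otp, C15, CG3999, peg and Sr-CI (1 each), and 11 were centred in exons. Him, ato, RpS10a, CG45116, lmd and sens had no peak in any list. Only the start of org-1, a T-box gene of muscle founders, overlapped a peak, a 3-h 6mA peak at chrX:8455176-8455341.

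**Figure D5:**
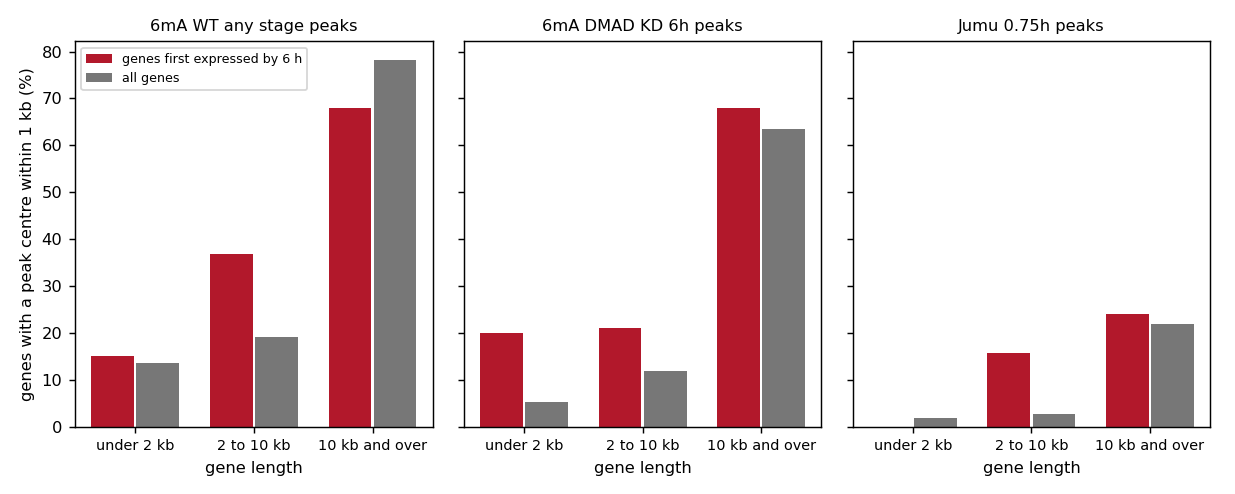
Percent of genes with a peak centre in the gene or within 1 kb, by gene length, for the genes first expressed by 6 h (red; 20, 19 and 25 genes) and all genes (grey), for 6mA peaks of any WT stage, 6mA peaks of 6-h DMAD knockdown embryos and Jumu peaks at 0.75 h. At 10 kb and over the red bar of WT 6mA peaks, 68%, is below the grey one, 78.3%.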

How the data were processed

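RNA-seq of 12 groups of embryos or ovaries with 2 libraries each was used. The authors purified mRNA from total RNA, removed ribosomal reads with Bowtie2, mapped with STAR to dm6 and ran cuffdiff. The 7 deposited files give FPKM pooled over the libraries of a group. The submitters' processing notes also name FastQC and TopHat2. For 6mA-DNA-IP and Jumu pull-down, 1 library per condition, the authors called peaks with MACS2 against IgG at q 0.05 and deposited 6 lists with a score for each peak. IgG libraries are listed for WT at 0.75 h, 3 h and 6 h. None is listed for DMAD knockdown, and no control pull-down for Jumu. RNA depth is not given in the sources used here. Separate tables may be scaled differently, and the DMAD, 0.75-h and ovary tables list fewer genes.

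Here, changes were taken in log2(FPKM + 1) within a table, in Python 3.11.15 with pandas 2.3.3 and numpy 2.4.6. Because each group had 1 value, no test could be run. A change of 1 was called, and all genes of the table gave the background. The rule was checked on data simulated from genes of at least 5 FPKM. That level was reached by 13 of 64 late-wave genes in the 3-h jumu-table WT and 7 of 57 in the DMAD-table WT. The check therefore does not cover most of these genes. Binomial intervals came from scipy 1.17.1 and figures from matplotlib 3.10.9. Gene symbols were matched for all but 240 of 17535 genes, 1 of them a gene of this set. The genes named were the 12 highest at 6 h, the largest changes in both jumu mutants and in DMAD M-, up to 4 per list of 19 tissue and stage lists, those at the thresholds and the highest in 3-h embryos and ovaries. Genes, lists and comparisons were chosen with earlier results of these data known. Alternatives were other pseudocounts, filters, thresholds, quantile normalization, other controls and, for peaks, other windows. zld overexpression and DMAD knockdown RNA were not analysed here.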

Additional observations from a re-analysis of the deposited data

Results flagged for a closer look

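CG45116 moved in opposite directions in the mutants: its change in log2(FPKM + 1) against the shared WT was -1.55 for jumu M-,Z- embryos and -1.91 for the M-,Z+ embryos, and 3.96 in DMAD M- against its own WT. The difference between these changes was not tested, since each group has 1 value.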

How the results depend on the processing

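No paired analysis was possible because each table holds 1 value per gene and group, and for the same reason no replicate could be left out. Of 95 values of the main results under the alternatives, 52 stayed the same, 36 moved and 7 reversed. The thresholds set how many genes there are: 65 as chosen, 150 with a 6-h FPKM of at least 5, 21 with at least 20, and 27 with 0.75-h and 3-h FPKM below 0.5; quantile normalization of the stage tables shared 51 of the 65.

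For jumu M-,Z+ at 3 h (median -0.42, 9 lower), a pseudocount of 0.1 gave 21 lower, a 1.5-fold threshold 27, a 6-h minimum of 5 gave 26 and the 0.5 limit 3 with a median of -0.63. Quantile normalization gave a median of -0.20. With the DMAD-table WT as control the median was 0.83, and with the stage WT 0.90 with 0 lower. For M-,Z- (median -0.61, 14 lower), the same settings gave 25, 35, 33 and 5 lower, quantile normalization a median of 0.031 and 3 lower, the DMAD-table WT a median of 0.71 and 8 lower, and the stage WT 0.70 and 0 lower. For M-,Z- against M-,Z+ (median -0.18), a pseudocount of 0.1 gave -0.27, an FPKM of at least 1 gave -0.31, quantile normalization 0.26 and the 0.5 limit 0. For DMAD M- (median 0.98, 26 higher), a pseudocount of 0.1 gave 1.80 and 42 higher, a 1.5-fold threshold 42, a 6-h minimum of 5 gave 52, the 0.5 limit 8, quantile normalization 0.21 and 8, and the jumu-table WT as control -0.12 and 11. At 0.75 h (median 0.24), a pseudocount of 0.1 gave 0.54, an FPKM of at least 1 gave 0.43 and quantile normalization 0.42. In ovaries (median -0.13), these gave -0.52, -0.71 and -0.018. The share of genes with a 6mA peak within 5 kb was 60.9% at 0.75 h and 54.7% in DMAD knockdown.

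Every gene of this set is below 1 FPKM at 3 h in the stage series by the rule. Against the stage WT, 0 lower genes, and values above 0 for most, were therefore fixed by the choice and are no check. Genes called at a change of 1 reversed only with the WT of another table as control, while quantile normalization changed the sign of 30 genes in M-,Z-, 6 in M-,Z+ and 12 in DMAD M-, none of them called. In M-,Z+ with the DMAD-table WT, C15 was at 0.39 and Awh at 1.25; with the stage WT, C15 was at 0.89, ato 0.41, Awh 0.80, dmrt11E 0.33, Him 1.97, Spn28Da 0.12 and CG34025 1.39. In M-,Z- with the DMAD-table WT, C15 was at 0.000796, Awh 1.13, dve 0.31, CG13300 0.76, CG6356 0.89 and CG31121 0.94; with the stage WT, cn was at 0.96, C15 0.49, Awh 0.69, dve 0.015, Him 1.94, CG13300 0.48, CG6465 0.23, CG6356 0.13, CG31121 0.57 and CG32407 0.87. In DMAD M- with the jumu-table WT, svp was at -0.43, ct -0.53, caup -0.42, CG13300 -0.65, CG3999 -0.031, CG6356 -0.53, Cad99C -0.19, CG31121 -0.12, CG34025 -0.12 and bru2 -0.83. The cause of these differences between wild types was not tested.

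Single FPKM values give no spread, most of these genes were below 10 FPKM at 3 h, and peak shares rest on 64 genes and 1 library per condition.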
